A study of Mus musculus with 19 samples.

Results

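The 54 genes described here make, fold, glycosylate, inspect and export proteins of the endoplasmic reticulum (ER) secretory pathway, and they were taken by name from 23284 genes measured by RNA-seq in mouse prostate, in tissue grafts and in mouse embryonic fibroblasts (MEFs). They comprise 11 chaperones, 5 disulfide isomerases, 8 stress sensors and transcription factors, 9 translocon genes, 6 genes of the signal peptidase and the signal recognition particle (SRP), 7 genes of the oligosaccharyltransferase, 6 genes of ER-associated degradation and 2 of the COPII vesicle coat. All 54 were present in both deposited tables.

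The 6 prostate samples came from C57BL/6 mice, with 6 weeks given as their growth duration. The 6 MEF samples were mouse embryonic fibroblasts, cultured from C57BL/6 embryos at E13.5 in serum-containing medium and labelled Nkx3-1tm2(LacZ)Mms /+. The 7 renal grafts were made from induced epithelial (iEpt) cells, which are fibroblasts primed with retroviral human OCT4, SOX2, KLF4 and c-MYC, and they grew with rat urogenital mesenchyme under the kidney capsule of male nude mice for 6 weeks. The study also gave further genes by lentivirus, among them Nkx3.1 and Foxa1, to part of its iEpt cells, but the sample labels do not say which grafts received them. A set of 5 grafts (FS002, FS003, FS005, FS007, FS008) shared a table with prostate and MEFs, and the other 2 (FS022 and FS023) were normalized in a table of their own, so any difference between the 2 sets of grafts and a difference between tables cannot be told apart. A graft also holds rat stroma and mouse host cells, and the part of rat reads in the values of mouse genes was not tested. The study also placed testosterone pellets in graft hosts, a treatment it does not describe for the prostate mice, and its part was not tested.

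Secreted proteins enter the ER through the Sec61 translocon, lose their signal peptide, receive N-glycans and are folded by chaperones and disulfide isomerases before COPII vesicles carry them to the Golgi. Proteins that fail to fold are returned to the cytosol and degraded, and a rising load is sensed by IRE1, ATF6 and PERK, which switch on the genes of this machinery through transcription factors such as XBP1 and ATF6. Prostate luminal cells are professional secretors of seminal fluid proteins, and embryonic fibroblasts secrete collagen and other matrix proteins.

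Values were on a log2 scale as deposited, and a difference of 1 between samples means a 2-fold difference in level. The reads counted on genes were recovered from the steps of the values and ranged from 16766256 to 26150576 in the first table, with 6629309 and 9661578 in FS022 and FS023. At 3 reads, the first table's values came to between 1.68 and 2.34, a floor that covers counting error only. The prostate samples had a summed level of 7 luminal markers of 20.1 to 21.2 on the log2 scale, against 13.8 to 15.3 in the 5 grafts and 5.63 to 11.8 in MEFs. That sum was carried by secreted products: prostate exceeded grafts by 11.58 for Sbp, 11.26 for Pbsn and 7.09 for Spink3, but by 1.71 for the keratin Krt18, and it did not exceed them for Krt8 (-0.49, not called). The MEFs had the highest summed level of 6 fibroblast markers, 18.9 to 19.3, against 13.6 to 16.3 in the 5 grafts. MEF samples FS015 to FS018 carried abundant prostate transcripts, with Sbp at 9.48 to 11.23 against 1.99 and -1.61 in FS019 and FS020, and results were therefore also computed without those 4. The MEFs formed 3 close pairs (FS015 with FS020, FS016 with FS019, FS017 with FS018), which differed by a root mean square of 0.136 to 0.143 log2 units within pairs and of 0.484 to 0.591 between them. The labels do not say that samples of a group came from separate animals or cultures, so p-values measure the spread between these samples, which may be partly technical. Kidney tubule markers were high in grafts FS002, FS005 and FS008 (summed level 16.3 to 17.4), lower in FS003 and FS007 (10.3 and 12.8), and between 2.35 and 6.66 in prostate. In bulk tissue, fewer cells of a type and less RNA per cell cannot be told apart.

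The promoters of several members carry an ER stress response element (ERSE), the paired site through which ATF6 and NF-Y act on chaperone genes in the textbook account. RefSeq promoters (GRCm38.p6, 250 bases before to 50 after the start) were found for 43 of the 54 members. The ERSE, a CCAAT box and a CCACG box 9 bases apart on either strand, occurred in 9 of these 43 promoters (20.9%) and in 37 of all 27025 promoters (0.137%). The related ERSE-II, ATTGG and CCACG 1 base apart, occurred in 2 members (4.65%) and in 12 genes of all (0.0444%), and the UPRE, TGACGTGG, in 1 member (Sec24d) and in 193 of all (0.714%). Sites of 7 members are shown because the promoters of folding and degradation genes share their letters at the boxes. The capitals mark the 2 boxes of the motif, on the strand of the gene, and in Creld2 and Derl3 the motif runs in the opposite direction.
Hspa5: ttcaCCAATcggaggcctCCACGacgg
Canx: ttgaCCAATcaccacgctCCACGaaga
Creld2: ttctCGTGGcgagcctcaATTGGtcca
Pdia6: gagaCCAATgaaaggcggCCACGgcgt
Derl3: ctacCGTGGgacttccccATTGGctag
Syvn1: gcaaCCAATcggcggtagCCACGggaa
Herpud1: gctgATTGGgCCACGttgg
These windows lie at chr2:34772021-34772047 on the + strand for Hspa5, chr11:50325796-50325822 on the - strand for Canx, chr15:88819516-88819542 on the + strand for Creld2 and chr12:17266487-17266513 on the + strand for Pdia6. Derl3 has its site at chr10:75893238-75893264, Syvn1 at chr19:6046528-6046554 and Herpud1, with the ERSE-II, at chr8:94386373-94386391, all on the + strand. The ERSE of Syvn1 ran from 44 to 26 bases before the start, that of Hspa5 from 65 to 47, and that of Derl3 from 156 to 138. A match to the letters is a description of the window and shows no binding. The element is known from genes of this kind, so its share among the members is no independent result.

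The 54 genes took 3.04% ± 0.442 (SD, n = 6) of the reads on genes in prostate, 1.97% ± 0.183 (SD, n = 6) in MEFs and 1.31% ± 0.0619 (SD, n = 5) in the grafts of the first table. The prostate samples ranged from 2.54 to 3.55%, the MEFs from 1.81 to 2.21% and the grafts from 1.23 to 1.39%, so no group overlapped another. Prostate held this share although its 10 most abundant genes took 16.2 to 24.4% of its reads, against 3.88 to 4.97% for the top 10 of each graft. Chaperones alone took a median of 1.07% of reads in prostate, 0.711% in MEFs and 0.451% in grafts, and the smaller signal peptidase and SRP group 0.162%, 0.0656% and 0.0559%. Per kilobase of exon, P4hb, the classical protein disulfide isomerase, was the highest member in prostate at 957 ± 113 (SD, n = 6) reads per kilobase, scaled to a fixed total of reads on genes (RPKM), followed by Hspa5 at 808 ± 256 and Calr at 769 ± 150. Agr2, at rank 4 in prostate with 709 ± 95.9 RPKM, stood at 92.5 RPKM in the grafts and at 0.475 in MEFs. Calr, P4hb, Pdia3, Hsp90b1 and Hspa5 filled the first 5 places in both MEFs and grafts, in another order in each.

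**Figure D1:**
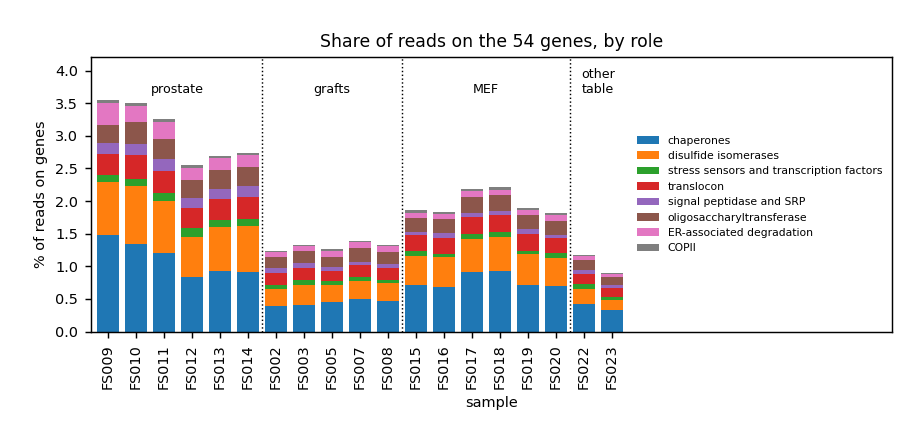
Stacked bars give the percentage of reads on genes that fell on the 54 members in each of 19 samples, coloured by role, with FS022 and FS023 from the other table at the right. Prostate samples reach 2.54 to 3.55%, MEFs 1.81 to 2.21% and the 5 grafts beside them 1.23 to 1.39%.

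A set of 3 comparisons asked how far the secretory machinery of prostate exceeded that of fibroblasts, how far grafts had moved from fibroblasts, and how far grafts stood from prostate. A gene was called with a limma adjusted p (Benjamini-Hochberg, over all genes tested) under 0.05 and a log2 fold change of at least 1 in either direction. The comparisons share samples, so their counts are not independent.

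Against grafts, prostate was higher for 46 of the 54 members and lower for 1, Ern2, where 10.3% of 16353 genes tested were called higher, 23% lower and 33.3% in either direction. The median log2 difference over the members was 1.51, against -0.11 over all genes tested. In 50 members every prostate sample exceeded every graft, a pattern held by 17.3% of all genes tested, and in 1, Ern2, every prostate sample lay below every graft (19.8% of all genes). Ern2 was near the value of 3 reads in prostate. It passed the filter, a linear mean of at least 10 in the samples compared, only through the grafts. Its direction was therefore fixed beforehand, and its call and its separation are no test. The 7 members without a call were Canx, Dnajb11, Creb3l1, Sec62, Sec63, Stt3b and Sec23b, and for 6 of them, all but Creb3l1, the difference was positive, from 0.37 for Stt3b to 0.98 for Sec63. With only FS003 and FS007, the grafts with the lowest kidney markers, 39 members were higher and 1 lower. Without prostate FS009, the counts were 43 and 1. Calls close to a 2-fold change were lost under several of the 15 alternatives to the deposited scaling, filter and samples, namely in 6 for Pdia3 (0.52 to 0.96), 5 for Ddit3 (0.84 to 1.00) and Derl1 (0.90 to 0.98), 4 for Rpn1 (0.67 to 0.98) and 3 for Ssr1 (0.83 to 1.00) and Xbp1.

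Markers of other cells moved with the same comparison. The summed level of 4 smooth muscle markers was 16.1 to 16.8 in prostate, 11.9 to 14.3 in the 5 grafts and 15.7 to 16.5 in MEFs, and Myh11 and Cnn1 were called higher in prostate than in grafts by 3.74 and 4.46, as was Acta2, while Des was not called. The summed level of 3 macrophage markers ran the other way, from 8.95 to 10.45 in prostate and from 10.96 to 11.87 in the grafts, with Cd68, Emr1 and Csf1r lower in prostate by 2.16, 1.87 and 1.07. Their part in the differences of the 54 genes was not tested.

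Against MEFs, prostate was higher for 25 of the 53 members tested and lower for 1, Creb3l1, where 27.8% of 14560 genes were called higher, 20.5% lower and 48.3% in either direction. The median difference was 0.85, against 0.17 over all genes tested. Every prostate sample exceeded every MEF in 34 members (37.4% of all genes), and every prostate sample lay below every MEF in 4 (29.3% of all genes). The share of members called higher, 25 of 53, was above the background share, while lower calls were rarer than in the background. Without MEFs FS015 to FS018, 26 members were higher and 1 lower, and with the MEF pairs averaged to 3 values, 25 and 1.

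Grafts against MEFs showed the opposite balance, with 6 members higher and 15 lower, where 29.9% of 16121 genes tested were called higher, 12% lower and 41.9% in either direction. The median difference was -0.53 over the members and 0.26 over all genes tested. The 6 higher members were Agr2, Ern2, Creb3l4, Sec11c, Herpud1 and Derl3. Every MEF was at or below the value of 3 reads for Ern2. Here too it passed the filter only through the grafts, so its direction was fixed beforehand and its call is no test. The 15 lower members were Hsp90b1, Calr, Canx, Pdia3, Pdia4, Pdia6, P4hb, Ddit3, Creb3l1, Sec63, Ssr1, Ssr3, Spcs3, Stt3a and Sec24d. This balance depended on scaling. After quantile normalization 5 members were higher and 7 lower, where 18.0% of all genes tested were called higher and 24.4% lower. Lower calls were then no more frequent among the members than among all genes. The calls of Hsp90b1, Calr, Canx, Pdia3, Pdia6, P4hb, Sec63, Ssr1 and Ssr3 were lost, along with that of Derl3. The same normalization moved the median of the members in this comparison from -0.53 to -0.21. It moved that of all genes from 0.26 to -0.20, so the members no longer stood below all genes by their median. The share of higher calls among all calls went from 71.3 to 42.5% with this normalization. In the comparison of prostate with grafts it moved that share from 30.9 to 56.4%, the median of all genes from -0.11 to 0.14 and the count of higher members from 46 to 36.

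**Figure D2:**
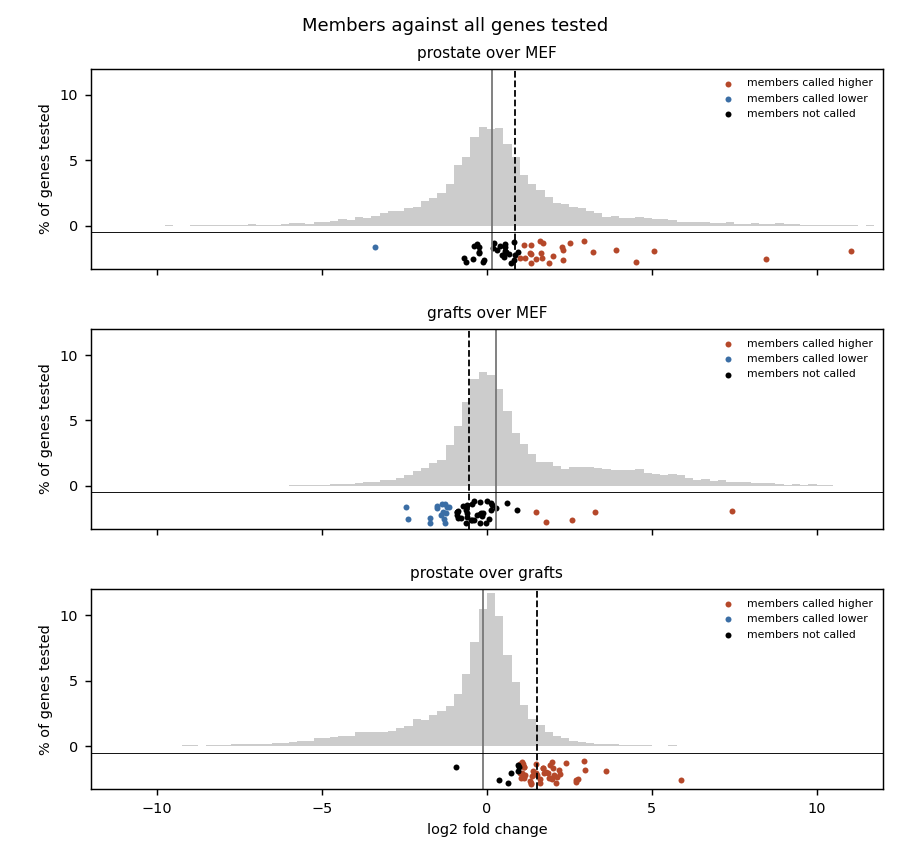
Grey bars give the percentage of all genes tested in bins of the log2 fold change, with points below them for the members, spread vertically for visibility and coloured by call, in each of 3 comparisons. Dashed lines mark the members' median (0.85, -0.53 and 1.51) and grey lines the median of all genes tested (0.17, 0.26 and -0.11). Ern2 is counted in the medians of the last 2 comparisons but not drawn, since it was near the value of 3 reads in prostate and MEFs.

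By the order of group means, 30 members stood highest in prostate, then MEFs, then grafts, and 13 of these did so with no overlap between neighbouring groups. Another 12 ran from prostate over grafts to MEFs, 5 of them without overlap. MEFs were highest for 10 members, with prostate second and grafts last (3 without overlap), and the remaining orders were those of Creb3l1 (MEFs, grafts, prostate) and Ern2 (grafts, prostate, MEFs). The shares of all genes with each order or separation were not computed, so these counts describe the members without a background. The heat map of all members by sample shows these orders role by role.

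**Figure D3:**
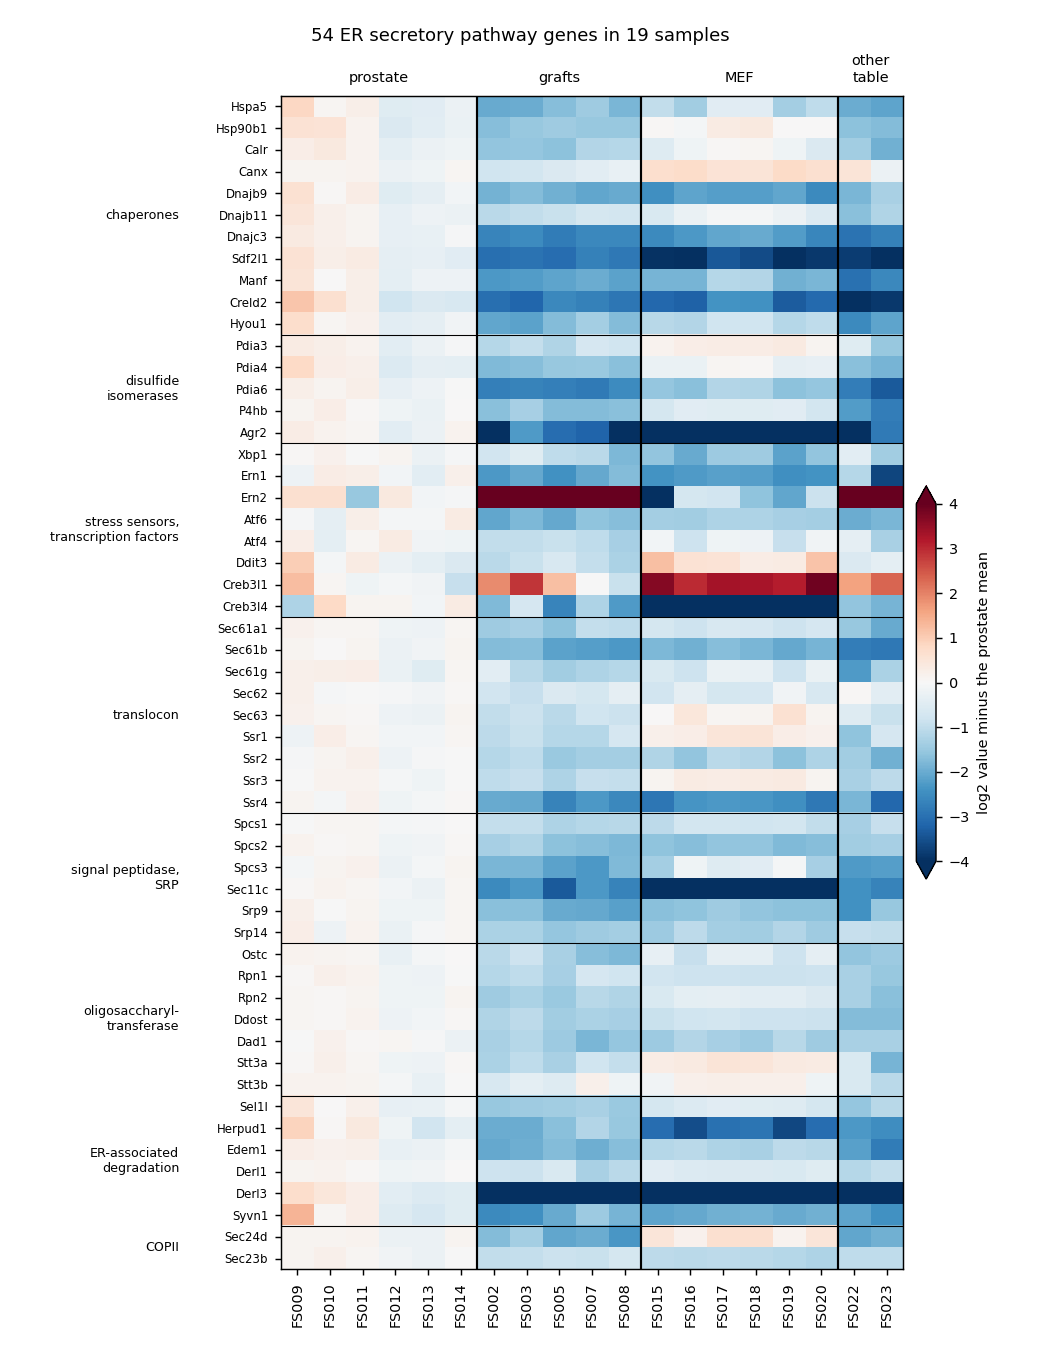
Each row is a member and each column a sample, coloured by the log2 value minus the mean of the 6 prostate samples (FS022 and FS023 after subtraction of the median difference between tables, scale cut at 4 in both directions), with roles at the left and groups at the top. The grafts are below prostate in nearly every row, MEFs are level with or above prostate in rows such as Canx, Stt3a and Sec24d, and Ern2 is the row in which every graft stands above prostate.

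The chaperones were higher in prostate than in grafts for 9 of 11 members (median log2 difference 1.88), and higher than in MEFs for 6 of 11 (median 1.01). Hspa5, which encodes BiP, the master Hsp70 chaperone of the ER, had values of 15.22 to 16.53 in prostate (median 15.62), of 13.57, 13.61, 13.90, 14.26 and 13.86 in the 5 grafts (given throughout in the order FS002, FS003, FS005, FS007, FS008), and of 14.29 to 15.26 in MEFs (median 14.67). All prostate samples exceeded all grafts, and the lowest prostate sample lay just under the highest MEF. The difference of prostate from grafts was 1.86 ± 0.241 (SE, adjusted p = 7.66e-05), a 3.62-fold higher level. Against MEFs it was 0.95 ± 0.246 (adjusted p = 0.00308), just short of a 2-fold change, and it passed that size under quantile normalization (1.29) and without MEFs FS015 to FS018 (1.19).

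Sdf2l1, an ER-resident partner of the co-chaperone Dnajb11, showed the largest change of the chaperones. Its values were 11.90 to 12.95 in prostate (median 12.29), 9.23, 9.30, 9.20, 9.63 and 9.47 in the grafts, and 8.03 to 8.97 in MEFs (median 8.41). The 3 groups did not overlap, and prostate exceeded grafts by 2.99 ± 0.196 (adjusted p = 8.46e-07) and MEFs by 3.91 ± 0.214 (adjusted p = 2.16e-09). Creld2, a stress-induced ER protein with an ERSE in its promoter, had 12.19 to 14.13 in prostate (median 12.82), 9.87, 9.71, 10.30, 10.27 and 10.08 in the grafts and 9.68 to 10.59 in MEFs (median 9.84). Prostate stood 7.69-fold above the grafts (2.94 ± 0.335, adjusted p = 3.03e-05), whereas the values of grafts and MEFs overlapped (adjusted p = 0.999).

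The other chaperones fell into 2 kinds. Dnajb9 and Dnajc3, co-chaperones of BiP, and Manf, a small stress-induced ER protein, were higher in prostate than in either other group, by 2.28, 2.30 and 1.63 over MEFs and by 1.99, 2.69 and 2.23 over grafts. Hyou1, the nucleotide exchange factor for BiP, exceeded MEFs by 1.01 ± 0.17 (adjusted p = 0.0001) and grafts by 1.88, and without prostate FS009 its difference from MEFs was 0.87. The abundant chaperones of general folding behaved differently. Hsp90b1 (GRP94), Calr and Canx, the last 2 the lectin chaperones of glycoprotein folding, differed between prostate and MEFs by -0.12, 0.23 and -0.64 without a call, and grafts were lower than MEFs by 1.72, 1.25 and 1.26 with the deposited scaling. Dnajb11 was not called in any comparison. Canx and Hspa5 both carry an ERSE, and Canx differed from grafts by 0.63 against 1.86 for Hspa5.

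Among the disulfide isomerases, all 5 were higher in prostate than in grafts with the deposited scaling (median 1.70; after quantile normalization the calls of Pdia3, at 0.52, and P4hb, at 0.99, were lost) and 4 were lower in grafts than in MEFs (median -1.25). Agr2, an isomerase of secretory epithelia that mucins need to fold, had values of 13.69 to 14.41 in prostate (median 14.21) and of 9.63, 11.75, 10.96, 10.89 and 9.22 in the grafts. In MEFs FS015 to FS020 it had 5.21, 3.23, 3.16, 4.18, 1.07 and 1.59, and FS019 and FS020, the MEFs with the least Sbp, were below the value of 3 reads (at most 2.02). Prostate exceeded grafts 12.2-fold (3.61 ± 0.393, adjusted p = 2.24e-05). Grafts in turn exceeded MEFs by 7.42 ± 0.742 (adjusted p = 7.87e-06), a value that rests on the MEFs FS015 to FS018. Set against the value of 3 reads in FS019 and FS020, the mean of the grafts was at least 356-fold higher (8.48 on the log2 scale).

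Pdia6, an isomerase that also acts on the IRE1 sensor, had 14.72 to 15.31 in prostate (median 15.12), 12.24, 12.28, 12.24, 12.22 and 12.53 in the grafts and 13.39 to 13.88 in MEFs (mean 13.60). The groups did not overlap, and the order was prostate, MEFs, grafts. Prostate was 6.81-fold above grafts (2.77 ± 0.13, adjusted p = 1.15e-07), and grafts were lower than MEFs by 1.29 ± 0.119 (adjusted p = 4.39e-06), a call lost under quantile normalization (adjusted p from the same limma test, difference -0.68). Pdia3, the partner of Calr and Canx, Pdia4 and P4hb, which is also a subunit of collagen prolyl hydroxylase, exceeded grafts by 1.02 to 1.70 in prostate. None of these 3 was called between prostate and MEFs, with differences of -0.24 to 0.56.

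The stress sensors and transcription factors held the members that differed most in kind between the groups. Xbp1, whose spliced form is the main transcription factor of secretory cells, had 12.60 to 13.01 in prostate (median 12.86), 11.99, 12.26, 11.73, 11.74 and 11.02 in the grafts and 10.72 to 11.43 in MEFs (median 11.23). Prostate exceeded MEFs by 1.71 ± 0.123 (adjusted p = 3.04e-08) and grafts by 1.10 ± 0.184 (adjusted p = 0.000438). Gene-level values do not separate the spliced from the unspliced form. The call against grafts was lost with FS003 and FS007 as the only grafts (0.84), without FS008 (0.92) and under quantile normalization (0.86).

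Ern1, which encodes the sensor IRE1α that splices Xbp1, had 10.58 to 11.32 in prostate (median 11.06), 8.63, 8.87, 8.51, 8.96 and 9.26 in the grafts and 8.59 to 8.86 in MEFs (median 8.68). It was 4.51-fold higher in prostate than in grafts (2.17 ± 0.168, adjusted p = 2.2e-06) and 4.97-fold higher than in MEFs (2.31 ± 0.122, adjusted p = 1.5e-09). Grafts and MEFs overlapped (0.14 ± 0.137, adjusted p = 0.384). Its relative Ern2, which encodes IRE1β, known from mucus-secreting epithelia, showed the reverse. The grafts had 6.77, 9.14, 7.61, 8.97 and 7.64, while 5 of 6 prostate samples and 6 of 6 MEFs were at or below the value of 3 reads. Set against the highest such value among MEFs, the mean of the grafts was at least 61.5-fold higher, and the lowest graft at least 25.8-fold. Ern2 was highest in FS003 and FS007, the grafts with the least kidney marker signal, and whether it came from the iEpt cells was not tested.

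Creb3l1 and Creb3l4 are related membrane-bound factors, of which Creb3l1 (OASIS) drives collagen genes and Creb3l4 is known from prostate epithelium. Creb3l1 had 6.87 to 9.02 in prostate (median 7.63), 9.54, 10.52, 8.86, 7.73 and 6.84 in the grafts and 10.75 to 11.62 in MEFs (median 11.09). It was lower in prostate than in MEFs by 3.38 ± 0.285 (adjusted p = 1.35e-07), a 10.4-fold difference, and lower in grafts than in MEFs by 2.44 ± 0.543 (adjusted p = 0.00219). Without FS015 to FS018 the graft difference was -2.56 and no longer called. Prostate and grafts overlapped (-0.94 ± 0.597, adjusted p = 0.2), though without FS008 the difference was -1.40 and called. Creb3l4 ran the other way, with 8.09 to 10.11 in prostate (median 9.42), 7.45, 8.53, 6.56, 8.05 and 7.02 in the grafts and 3.52 to 4.54 in MEFs (median 4.36). Prostate exceeded MEFs 33.4-fold (5.06 ± 0.294, adjusted p = 3.73e-09), and grafts exceeded MEFs 9.67-fold (3.27 ± 0.366, adjusted p = 1.77e-05). The call of Creb3l4 in prostate over grafts (1.79 ± 0.398, adjusted p = 0.00278) was lost with FS003 and FS007 as the only grafts (1.02).

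Each gene alone set all MEFs apart from the other samples, so the log2 difference of Creb3l4 from Creb3l1 had to do so too. It was -7.58 to -6.24 in the 6 MEFs, 1.59 to 2.78 in prostate FS010 to FS014 and -0.94 in prostate FS009. The grafts had -2.09, -1.99 and -2.29 in FS002, FS003 and FS005 and 0.32 and 0.18 in FS007 and FS008. All 5 lay above the MEFs and below prostate FS010 to FS014, and FS007 and FS008 lay above prostate FS009. These are differences of levels not scaled to gene length, so their sign within a sample has no meaning of its own, and only their order between samples is described. The fibroblast marker sum was 15.7, 16.3 and 14.1 in FS002, FS003 and FS005 and 14.1 and 13.6 in FS007 and FS008, and its part in the order was not tested.

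Of the remaining factors, Atf6, the sensor that becomes a transcription factor itself, was higher in prostate than in MEFs (1.32) and in grafts (1.92). Atf4 and Ddit3 (CHOP), which act downstream of PERK, were higher in prostate than in grafts by 1.12 and 1.04 but not called between prostate and MEFs (0.41 and -0.68). Ddit3, a gene of unresolved stress, was lower in grafts than in MEFs by 1.72. Its call in prostate over grafts was lost without FS009 (0.84), with median centring (0.96), without FS002 (1.00, just under the limit), without FS008 (0.97) and with FS003 and FS007 as the only grafts (0.98).

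The translocon genes were higher in prostate than in grafts for 7 of 9 members (median 1.14), and higher than in MEFs for 3 of 9 (median 0.55), a share near the 27.8% of all genes. Ssr4, the delta subunit of the translocon-associated protein (TRAP) complex, had 13.03 to 13.37 in prostate (median 13.19), 11.09, 11.04, 10.42, 10.89 and 10.59 in the grafts and 10.28 to 10.92 in MEFs (median 10.81). Prostate exceeded grafts by 2.40 ± 0.132 (adjusted p = 3.2e-07) and MEFs by 2.54 ± 0.124 (adjusted p = 7.84e-10), and grafts and MEFs overlapped. Sec61b, the beta subunit of the protein channel, had 11.21 to 11.60 in prostate (median 11.53), 9.63, 9.65, 9.21, 9.25 and 9.13 in the grafts and 9.41 to 9.76 in MEFs (median 9.60). It was 4.25-fold higher in prostate than in grafts (2.09 ± 0.123, adjusted p = 4.51e-07) and 3.66-fold higher than in MEFs (1.87 ± 0.0812, adjusted p = 2.85e-10).

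Subunits of 1 complex did not move together against MEFs. Of the 4 TRAP subunits, Ssr2 and Ssr4 exceeded MEFs in prostate with a call (1.33 and 2.54), while Ssr1 and Ssr3 differed by -0.31 and -0.24. Of the Sec61 channel, the pore subunit Sec61a1 differed by 0.73 and the gamma subunit Sec61g by 0.52, neither with a call. Sec61g had 2.52 RPKM in prostate against 115 RPKM for Sec61b, and whether its reads were shared with copies of the gene elsewhere in the genome was not tested. Sec62 and Sec63, which help the channel take up finished chains, were not called between prostate and grafts (0.73 and 0.98).

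The signal peptidase and SRP genes were higher in prostate than in grafts for all 6 members (median 1.79) and higher than in MEFs for 4 (median 1.46). Sec11c, a catalytic subunit of the signal peptidase, had 12.65 to 13.01 in prostate (median 12.97), 10.23, 10.48, 9.44, 10.60 and 10.20 in the grafts and 8.13 to 8.60 in MEFs (median 8.43). The groups were fully separate, and prostate exceeded grafts 6.52-fold (2.70 ± 0.181, adjusted p = 9.55e-07) and MEFs 22.7-fold (4.51 ± 0.091, adjusted p = 2.06e-12). Grafts exceeded MEFs 3.49-fold (adjusted p = 1.08e-05). Spcs3, an accessory subunit of the same enzyme, had 12.77 to 13.19 in prostate (median 13.02), 11.07, 11.08, 10.75, 10.68 and 11.23 in the grafts and 11.61, 12.82, 12.48, 12.54, 12.95 and 11.64 in MEFs FS015 to FS020. The low MEFs were the pair FS015 and FS020, which also had the highest macrophage marker sum (11.8 and 11.6, against 6.96 to 7.28 in the other 4), although the study sorted its fibroblast cultures to remove macrophages and other non-fibroblast cells. The part of such cells in the Spcs3 values was not tested. Prostate exceeded grafts by 2.04 ± 0.12 (adjusted p = 4.51e-07). Spcs2 and the SRP proteins Srp9 and Srp14, which slow translation while the ribosome docks, were higher in prostate than in both other groups, by 1.31 to 1.67 over MEFs and 1.44 to 1.98 over grafts. Spcs1 was called only against grafts (1.15).

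The oligosaccharyltransferase, which transfers the N-glycan to the nascent chain, was higher in prostate than in grafts for 6 of 7 members (median 1.31) but higher than in MEFs for 1. Dad1, a small shared subunit, had 11.77 to 12.13 in prostate (median 12.02), 10.58, 10.73, 10.42, 10.14 and 10.41 in the grafts and 10.51 to 10.88 in MEFs (median 10.60). It exceeded grafts by 1.53 ± 0.109 (adjusted p = 1.31e-06) and MEFs by 1.33 ± 0.0819 (adjusted p = 6.65e-09). Ostc, which links the enzyme to the translocon, had 11.55 to 12.01 in prostate (median 11.91), 10.66, 10.91, 10.47, 10.13 and 10.03 in the grafts and 10.92 to 11.50 in MEFs (median 11.46), and the difference from grafts was 1.41 ± 0.157 (adjusted p = 2.64e-05). The catalytic subunits differed from each other. Stt3a, of the form that works on chains as they enter, was higher in prostate than in grafts (1.13) and lower in grafts than in MEFs by 1.51, while Stt3b, of the form that works after entry, was called in no comparison. Rpn1, Rpn2 and Ddost exceeded grafts by 1.06 to 1.36 and MEFs by 0.47 to 0.84, the latter without a call.

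ER-associated degradation was higher in prostate than in grafts for all 6 members with the deposited scaling (median 1.84, with the call of Derl1 lost in 5 alternatives) and higher than in MEFs for 4 (median 1.58). Derl3, a membrane protein of the channel through which misfolded chains leave the ER, had 11.50 to 12.80 in prostate (median 12.00), 7.84, 6.35, 6.11, 5.08 and 5.63 in the grafts and 2.73 to 4.43 in MEFs (median 3.69). The groups were separate, and prostate was 58.6-fold above grafts (5.87 ± 0.437, adjusted p = 1.69e-06), the largest rise over grafts of any member. Over MEFs the difference was 8.46 ± 0.321 (adjusted p = 9.45e-11), and it was 9.22 when the MEFs were FS019 and FS020. Derl1, a relative of Derl3, differed in prostate from grafts by 1.01 and was not called against MEFs (0.55).

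Syvn1 (HRD1), the ubiquitin ligase of this pathway, had 11.83 to 13.89 in prostate (median 12.33), 9.88, 9.99, 10.40, 11.07 and 10.66 in the grafts and 10.38 to 10.65 in MEFs (median 10.56). Prostate exceeded grafts 4.38-fold (2.13 ± 0.357, adjusted p = 0.000444) and MEFs 3.99-fold (2.00 ± 0.283, adjusted p = 2.17e-05), and FS009 supplied the highest prostate value. Herpud1, which recruits the ligase and carries an ERSE-II, was higher in grafts than in MEFs by 1.48 ± 0.191 (adjusted p = 4.94e-05) and higher in prostate than in grafts by 1.73. Edem1, which extracts misfolded glycoproteins, was higher in prostate than in MEFs (1.16) and grafts (1.95), and Sel1l, the partner of Syvn1, only than in grafts (1.49).

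The COPII pair split. Sec24d, the cargo adaptor that collagen export depends on, had 11.59 to 12.00 in prostate (median 11.96), 10.00, 10.40, 9.67, 9.85 and 9.49 in the grafts and 12.02 to 12.50 in MEFs (median 12.32). The grafts lay below both other groups, 3.91-fold under prostate (1.97 ± 0.157, adjusted p = 2.78e-06) and 5.26-fold under MEFs (-2.40 ± 0.162, adjusted p = 5.17e-07). Prostate lay under every MEF, though by only 0.43 ± 0.111 (adjusted p = 0.00318). Sec23b, a structural coat subunit, had 11.50 to 11.94 in prostate (median 11.80), 10.67, 10.70, 10.78, 10.84 and 11.01 in the grafts and 10.48 to 10.71 in MEFs (median 10.67). It was higher in prostate than in MEFs by 1.11 ± 0.077 (adjusted p = 1.96e-08) and differed from grafts by 0.95 ± 0.1 (adjusted p = 1.86e-05), just under a 2-fold change.

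**Figure D4:**
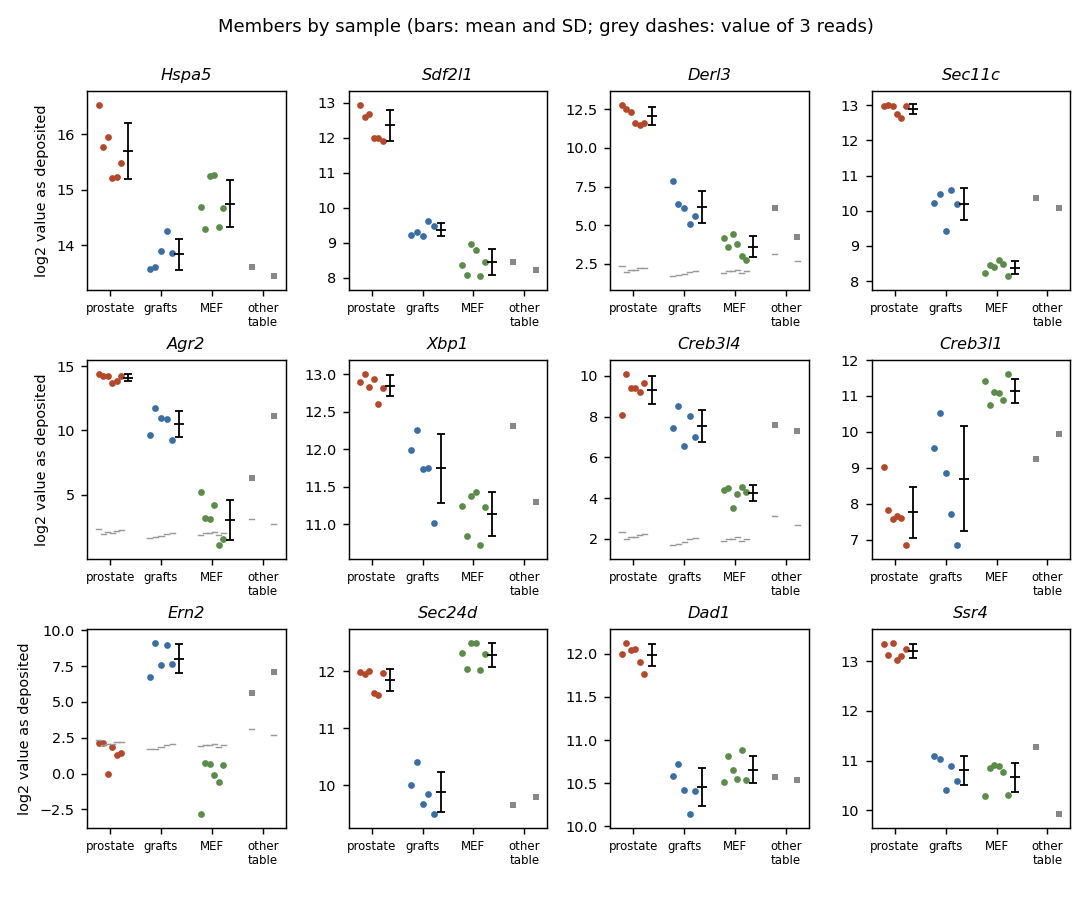
Log2 values as deposited of 12 members in each sample, with prostate in red, grafts of the first table in blue, MEFs in green and the 2 grafts of the other table as grey squares. Black marks give the mean and SD of a group (left out for Ern2 in prostate and MEFs) and grey dashes the value of 3 reads, drawn where a panel reaches that low. Derl3 and Agr2 fall from prostate through grafts to MEFs, Creb3l1 runs the other way, and Ern2 is above the value of 3 reads in every graft.

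The 11 members with an ERSE or ERSE-II in the RefSeq promoter were higher in prostate than in grafts in 9 cases, with a median of 1.86 and a range of 0.63 to 5.87. The 32 members whose promoter window had neither were higher in 28 cases, with a median of 1.40. Against MEFs the counts were 6 of 11 (median 1.47) and 14 of 32 (median 0.84). No test was made of these medians, and the ranges overlap.

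Within prostate the chaperones and the degradation genes varied most from sample to sample. Over members with a mean value above 10, the median SD between the 6 prostate samples was 0.419 for chaperones and 0.440 for ER-associated degradation, against 0.152 for the translocon, 0.165 for the oligosaccharyltransferase and 0.143 for all 3989 genes at that level. FS009 held the highest value of 30 members, among them 9 of 11 chaperones and 6 of 6 degradation genes, and its median deviation from the group mean was 0.59 in chaperones and 0.08 in the oligosaccharyltransferase. FS012 held the lowest value of 27 members and of 10 chaperones. The share of all genes with their highest or lowest value in a given sample was not computed. Whether these counts are particular to the members was therefore not tested. In the same FS009 sample Hspa5 was 16.53 against 15.22 to 15.95 in the other 5, Syvn1 13.89 against 11.83 to 12.80 and Creb3l4 8.09 against 9.19 to 10.11.

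Markers of other cells also moved with FS009. The summed level of 5 plasma and B cell markers was 7.07 there and 4.02 to 5.28 in the other prostate samples, through Igj (6.96), while Cd79a and Tnfrsf17 were at or below the value of 3 reads. The kidney tubule sum was 6.66 against 2.35 to 4.54, and the luminal sum was 21.2 against 20.1 to 20.9. Their part in the higher chaperone levels was not tested.

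The spread of the chaperones was smaller in grafts and MEFs. The median SD of chaperones was 0.249 in the grafts, where all genes at that level had 0.299, and 0.250 in MEFs, where they had 0.156. In the grafts, FS007 held the highest value of 6 of 11 chaperones and of 20 members, again without a share of all genes to set beside it. FS007 also had the highest plasma and B cell sum (9.96, against 6.31 to 6.76 in the other 4). In MEFs, the pair FS017 and FS018 had median chaperone deviations of 0.25 and 0.28, and the other 4 MEFs of -0.21 to -0.09.

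**Figure D5:**
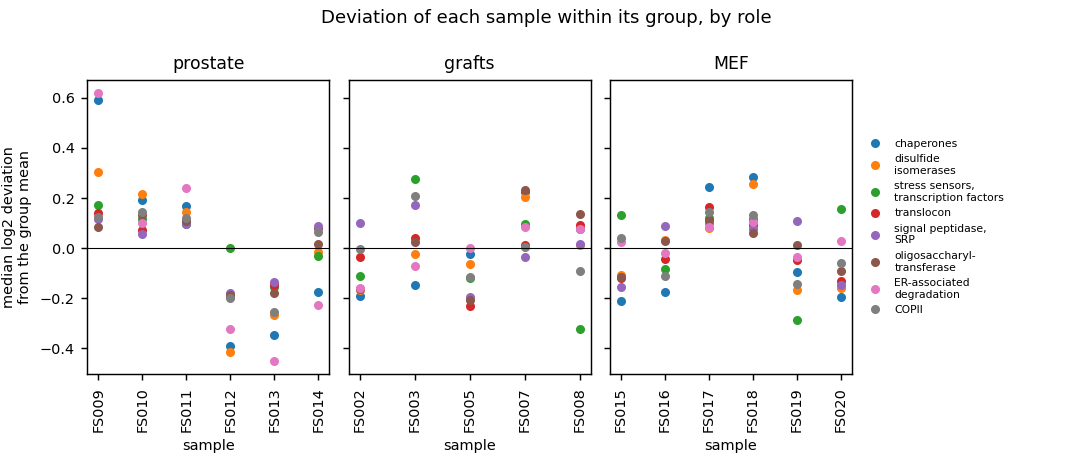
Points give, for each sample, the median over the members of a role of the log2 deviation from the mean of the sample's own group, coloured by role, in prostate, grafts and MEFs. FS009 stands apart in chaperones (0.59) and ER-associated degradation (0.62) among the prostate samples, where its oligosaccharyltransferase deviation is 0.08.

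Grafts FS022 and FS023 were placed beside the others after the median difference between the tables over 10188 genes had been subtracted, and no test was made. On that scale 49 of the 54 members in FS022 and 51 in FS023 lay below the range of the 6 prostate samples. Within the range of the 5 other grafts lay 23 and 22 members, below it 20 and 25, and above it 11 and 7. The shares of all genes in these positions were not computed, so the counts describe the members without a background. The median difference from the prostate mean was -1.59 and -1.73, and from the mean of the other grafts -0.13 and -0.23. The 54 genes took 1.17 and 0.902% of their reads. As deposited, Agr2 had 6.28 in FS022 and 11.12 in FS023, Ern2 5.64 and 7.12, Derl3 6.15 and 4.25, Xbp1 12.31 and 11.30, and Hspa5 13.60 and 13.44. Ern2 was thus above the value of 3 reads (3.12 and 2.70) in these 2 grafts as well, and Agr2 lay below the lowest of the other grafts in FS022 only.

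Another 61 genes of the same pathway, taken from a separate list, moved less uniformly. Prostate exceeded grafts in 31 of the 60 tested and was lower in 1, with a median of 1.03, where 10.3% of all genes were called higher and 23% lower. The targeting and translocation genes were higher in 6 of 10, the degradation genes in 5 of 8, the transport genes in 8 of 14 and the folding genes in 5 of 15. Fkbp11, a prolyl isomerase of secretory cells, and Bhlha15 (MIST1), the transcription factor that scales the secretory apparatus of gland cells, had the largest differences, 4.41 ± 0.317 (adjusted p = 1.36e-06) and 4.78 ± 0.628 (adjusted p = 8.15e-05). Against MEFs prostate was higher in 16 of 59 and lower in 11, shares near those of all genes (27.8% and 20.5%). Grafts were higher than MEFs in 4 and lower in 23 of 60, where 29.9% and 12% of all genes were called. The collagen chaperone Serpinh1 (HSP47) was lower than in MEFs by 4.06 ± 0.194 (adjusted p = 6.59e-10) in prostate and by 4.15 ± 0.43 (adjusted p = 1.01e-05) in grafts.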

How the data were processed

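RNA-seq libraries of 6 prostate, 6 MEF and 7 renal graft samples were analysed, 5 grafts in 1 table with prostate and MEFs and 2 in another. The authors normalized counts with DESeq. What they deposited is on a log2 scale, with 23284 genes in each table. The submitters' processing notes also name bcl2fastq 1.8.4, TopHat, Cufflinks and the mm9 build, and the transformation to log2 is not given in the sources used here. Values between 11.5 and 15 gave whole reads in 100% of cases (tolerance 0.05 reads) as log2 of reads times a sample constant plus 1.61, but lower values did not, so no count test was run. From these constants the depth (16766256 to 26150576 reads on genes in the first table) and the value of 3 reads were computed. That value limits what can be seen of Ern2 in prostate and MEFs and of Agr2 in MEFs. RPKM used exon lengths of GENCODE M1 on mm9, found for 53 members (Spcs3 had none).

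Groups were compared with limma 3.58.1 (lmFit, eBayes with trend, R 4.3.3) on the values as deposited, keeping genes whose mean on the linear scale reached 10 in the samples compared, with Benjamini-Hochberg adjustment over all genes tested. Samples were grouped by the labels alone. On simulated data, the fit recovered 93 of 100 genes changed by 3 log2 units between prostate and MEFs, 76 between grafts and MEFs and 79 between prostate and grafts. At 1.5 log2 units it recovered 81, 55 and 65 of 100, with 3, 5 and 8 false calls. The 54 members, the lists of other genes and the markers were chosen with earlier results of these data known. Values in every sample are given for the 2 members of each role with the largest difference between prostate and grafts, plus Hspa5, Xbp1, Agr2, Creb3l1, Creb3l4, Ern2 and Derl3. Alternatives changed the pseudocount, filter, scaling, fit and samples, and 3 of them (MEF pair means, grafts FS003 and FS007 only, without prostate FS009) were chosen after seeing the data. Promoter sequences are RefSeq's, on GRCm38.p6, and no coordinates of the 2 builds were combined. Protein sequences were not analysed here.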

Additional observations from a re-analysis of the deposited data

Results flagged for a closer look

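Within groups of 5 or 6 samples, 5 of 162 sets of values (54 members in 3 groups) had a sample far from the others by Dixon's test. Chance marks about 1 in 20 such sets, so about 8.1 were to be expected, and no explanation was tested for any of them. Pdia6 was 12.53 in graft FS008 and 12.22 to 12.28 in the other 4 grafts. Atf4 was 11.14 in graft FS008, below the 11.41 to 11.51 of the others. Srp14 was 9.88 in graft FS005 against 10.11 to 10.17. Creb3l4 was 3.52 in MEF FS017 against at most 4.54 in the others. Ern2 was -0.062 in prostate FS011 against 1.32 to 2.11, in a range where 5 of 6 prostate values were at or below that of 3 reads.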

How the results depend on the processing

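Of 2254 member values computed under alternatives, 2124 kept their direction and side of the threshold, 46 lost a call, 60 gained 1 and 24 changed sign. Without a minimum fold change, prostate over MEFs had 39 members higher and 7 lower, where 44.9% and 35.9% of all genes were called. Grafts over MEFs then had 9 members higher and 33 lower, where 40.2% and 25.4% of all genes were called. Quantile normalization, with the minimum kept, left 7 lower there, where 24.4% of all genes were called lower. Leaving out each graft in turn gave 15 to 16 lower and 6 higher members for grafts over MEFs, and 43 to 47 higher and 1 to 2 lower for prostate over grafts, with Creb3l1 as the added lower member without replicate 5 (FS008).

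No member changed sign in prostate over grafts. In prostate over MEFs, quantile normalization turned Hsp90b1 (0.34), Pdia3 (0.32), Sec63 (0.035), Ssr3 (0.068) and Stt3b (0.18), none of them called before or after. In grafts over MEFs it turned Hspa5 (0.11), Dnajc3 (0.035), Creld2 (0.026), Ern1 (-0.22), Sec61a1 (0.025), Sec62 (0.24), Ssr2 (0.30), Rpn1 (0.36), Ddost (0.0014) and Stt3b (0.12). Creld2 and Ssr2, near 0 in that comparison, also turned with median centring (0.063 and 0.052) and without MEFs FS015 to FS018 (0.28 and 0.10). Leaving out each graft in turn gave -0.064 to 0.083 for Creld2, -0.064 to 0.046 for Ssr2 and -0.0068 to 0.12 for Spcs2, and Ssr2 was 0.082 with FS003 and FS007 only. The cause was not tested. No paired analysis was possible because the labels number no replicates, and the numbers used here follow sample order within each group and tie no samples together. Depth limits statements on Ern2 in prostate and MEFs and on Agr2 in MEFs.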
